A study of Mus musculus with 24 samples.

Results

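Livers of newborn Cyp1b1-null mice from dams fed a vitamin A deficient diet were compared with livers of newborn Cyp1b1-null mice from dams fed a vitamin A sufficient diet. The samples were taken by their labels as PN0 (day of birth), Cyp1b1-null and either diet, which gave 4 of the 24 arrays in the series, 2 for each diet. Each array held RNA of 1 liver pool made from a litter. Both groups carried the Cyp1b1 deletion and both sets of dams ate a breeder chow until embryonic day 4.5, after which they received a defined diet with vitamin A or one without it. The arrays were 1-colour and measured total RNA. The 2 other comparisons used here for contrast were the same diets in newborn wild-type liver (4 arrays) and in Cyp1b1-null liver at weaning, postnatal day 21 (4 arrays). The labels give no number of pups for a pool, and nothing in the labels shows whether the 2 pools of a diet came from unrelated dams. The p-values and SEs therefore measure a spread between pools and not between unrelated dams. For each gene that spread is 1 estimate shared by all 10 groups of the series, wild-type and weanling arrays included. Among these groups is a further weanling genotype, labelled R-Cyp1b1-null, on both diets. It enters only through this estimate. The estimate is not the spread of these 4 pools alone.

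Vitamin A circulates as retinol bound to RBP4, is stored as retinyl ester mainly in the stellate cells of the liver, and is oxidised through retinal to retinoic acid. Retinoic acid acts through RAR and RXR receptors, which bind paired hexamer sites in DNA, and it is broken down by CYP26 enzymes whose genes it induces. CYP1B1 is a cytochrome P450 that oxidises oestrogens and arachidonic acid and can also convert retinol and retinal. The fetal liver is a blood-forming organ as well as a metabolic one, so newborn liver RNA holds transcripts of hepatocytes, erythroid and myeloid cells and megakaryocytes. Fewer cells of a type and less RNA per cell cannot be told apart in such samples.

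Levels are log2 of the background-subtracted signal minus the 75th percentile of the array, so that 0 is the 75th percentile and 1 unit is a 2-fold change, and differences are deficient minus sufficient. The liver genes Alb, Afp and Apoa1 were near the top of the scale on the 4 arrays. Alb, for serum albumin, read 9.70 and 9.48 in the sufficient pools and 9.54 and 9.57 in the deficient pools. Afp, the fetal counterpart of albumin, read 9.50 and 9.26 in the sufficient pools and 9.30 and 9.39 in the deficient pools. Of 20533 genes measured, 16657 were well above background on all 4 arrays. The 75th percentile of the raw signal lay between 421 and 517. The 4 arrays shared 1 slide and 1 scan day, with the sufficient pools in its first positions and the deficient pools in the others, so position on the slide and diet cannot be told apart.

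The brighter of 2 Cyp1b1 probes read 0.16 and 0.93 in the sufficient pools and 0.13 and 0.26 in the deficient pools, well above background on all 4 arrays labelled Cyp1b1-null. In newborn wild-type liver the same probe read between -5.07 and -2.99. Only the first wild-type deficient array read above the lowest signal counted as well above background on its array. The labels do not say which exons the deletion removes, and a probe outside them checks nothing. Between the diets Cyp1b1 differed by -0.35 ± 0.75 (SE), and by 0.04 without the second sufficient pool.

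From here values are written as both sufficient pools against both deficient pools, the first pool before the second. Sex-linked genes were read as a further check of the labels. Xist, the transcript of the inactive X chromosome in females, read 4.0 and 3.1 against 3.7 and 3.4. Ddx3y, a Y-linked RNA helicase gene, read -7.80 and -3.98 against -7.84 and -7.65, and it was well above background only on the second sufficient array. Eif2s3y, also Y-linked, read -6.58 and -3.72 against -6.65 and -7.47 and was likewise above background on that array alone. Kdm5d and Uty were above background on none of the 4. In newborn wild-type liver Ddx3y lay between 0.55 and 1.74 and Kdm5d between -2.62 and -1.52. Xist read 2.54 and 4.01 against -5.29 and 2.54 there, so the first wild-type deficient array stood apart. The labels describe all of these samples as pooled litters.

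The 2 pools of a diet were no closer to each other than to pools of the other diet. Over the 16657 genes well above background on all 4 arrays, the first sufficient and first deficient arrays were the closest pair, with a median absolute difference of 0.21 and 394 genes more than 2-fold apart. The 2 sufficient arrays had 746 such genes and a median absolute difference of 0.26, and the 2 deficient arrays had 1167 and 0.28. The 4 pairs of unlike diet had median absolute differences of 0.21 to 0.25. No gene was called by the limma test at a Benjamini-Hochberg adjusted p under 0.05 (0% of 20533 genes, smallest adjusted p = 1), and 69 genes had an unadjusted p under 0.05 (0.336%). That share lies far below the cut of 0.05 itself, so the shared SEs were wide for these 4 pools. The shared spread includes 2 weanling arrays of low median correlation with arrays of their age. They are an R-Cyp1b1-null sufficient array (0.54) and a wild-type deficient array (0.78). Without both, 286 genes had such a p, and with the 4 arrays alone 449 did. The lack of calls therefore does not show that the diets were alike. The median SE of a difference was 0.74. As a second description, genes were counted whose groups did not overlap. Both deficient arrays lay above both sufficient arrays for 2494 genes (12.1%) and below both for 2477 genes (12.1%). Under quantile normalization these counts were 3185 and 2037. Among genes well above background on all 4 arrays the shares were 12.2% and 11.1%. The median difference over all genes was -0.01.

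No gene of the retinoid pathway passed the test. The receptor gene Rarb, which retinoic acid induces through a site in its own promoter, and Cyp26a1, which encodes the main retinoic acid hydroxylase of liver, are the best known direct targets. A DR5 element (a pair of half-sites 5 bases apart, each being the consensus AGGTCA, the variant AGTTCA, the variant GGGTCA or the variant GGTTCA, on either strand) was searched in the 250 bases upstream of each start site in RefSeq windows of GRCm38.p6. It was found for 28 of 27025 genes with a window (0.104%), and within the retinoid lists only for Rarb and Cyp26a1. The 100 bases before the start site of both, the direct targets measured here, are shown with the element in capitals.
Rarb, chr14:16575477-16575576, minus strand: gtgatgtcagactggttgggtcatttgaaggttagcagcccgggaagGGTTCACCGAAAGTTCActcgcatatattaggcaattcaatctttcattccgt
Cyp26a1, chr19:37697708-37697807, plus strand: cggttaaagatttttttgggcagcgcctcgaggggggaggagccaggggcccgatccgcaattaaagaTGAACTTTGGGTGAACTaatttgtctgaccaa
A match is a description of the letters and not evidence of binding. Rarb read -0.06 and -0.08 against -0.24 and 0.01, a difference of -0.05 ± 0.42 with a 95% interval from -0.94 to 0.85. The groups overlapped, and the interval spans changes of both signs. Cyp26a1 read -4.93 and -4.64 against -4.43 and -5.61, was well above background on 3 of the 4 arrays, and differed by -0.24 ± 0.71. The second deficient pool was the lowest of the 4 for Cyp26a1 and the first deficient pool the highest. Cyp26b1, a hydroxylase of the same family, read 0.34 and 1.22 against -0.10 and 0.29. Both deficient values were lower for Cyp26b1, with a gap of 0.04 between the groups.

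Genes of uptake and storage are given first after these targets. Rbp4, the plasma carrier of retinol, read 9.32 and 9.18 against 9.20 and 9.18, a difference of -0.06 ± 0.84. Stra6l, encoding the liver receptor for RBP4, read 2.93 and 2.29 against 2.50 and 2.72. Lrat, the enzyme that esterifies retinol for storage, read -1.31 and -1.04 against -2.27 and -0.74, with the lowest and the highest value both on deficient arrays. Ttr, which holds RBP4 in plasma, read 2.90 and 3.61 against 1.95 and 3.27. Of 18 uptake and storage genes measured, 1 lay higher and 3 lower without overlap, against 12.1% of all genes in each direction. Their median difference was -0.13, from -0.20 without the second sufficient pool to 0.025 without the first sufficient pool.

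The next step of the pathway is the interconversion of retinol, retinal and retinoic acid. Dhrs3, the retinal reductase, read 3.16 and 3.35 against 3.25 and 3.45. Aldh1a1, which oxidises retinal to retinoic acid, read 0.20 and 1.03 against 1.09 and 1.42, and the deficient pools lay just above the sufficient ones. Aldh1a2, the embryonic retinal dehydrogenase, read -2.64 and -1.64 against -2.85 and -1.21, with a low and a high value in each diet. The counts of the next lists are likewise to be set against 12.1% of all genes in each direction. Of 25 oxidation and reduction genes, 1 lay higher and 0 lower without overlap (median 0.02, from -0.033 without the second sufficient pool to 0.078 without the second deficient pool), and of 6 clearance and binding genes 0 and 1 (median -0.18, from -0.28 without the first sufficient pool to -0.029 without the first deficient pool). Crabp1, a cytosolic binding protein for retinoic acid, was not well above background on any of the 4 arrays. Rxra, the main RXR of liver, read 4.42 and 3.62 against 4.44 and 4.11. Of 15 receptors and cofactors, 5 lay higher and 1 lower without overlap (median 0.12, from 0.025 without the second sufficient pool to 0.18 without the first sufficient pool). Among them the corepressor gene Nrip1 read 0.43 and 0.29 against 0.56 and 0.62 and the coactivator partner Cited2 read 1.52 and 1.68 against 1.93 and 1.80. At the other probes of both genes, all well above background on the 4 arrays, the groups overlapped. Those probes differed by 0.14 and 0.09 for Nrip1 and by -0.03, 0.17 and 0.10 for Cited2.

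**Figure D1:**
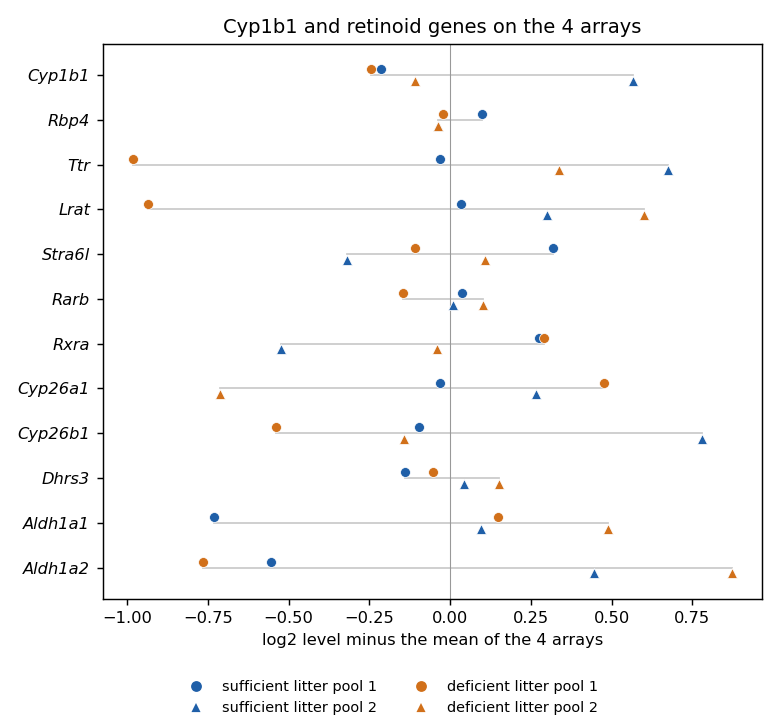
Levels of Cyp1b1 and 11 retinoid genes on the 4 arrays, each as log2 level minus the mean of the gene's 4 arrays (horizontal axis); colour gives the diet of the dam and shape the pool number, and each grey line spans the 4 values. The colours mix for most genes, and Ttr, Lrat, Cyp26a1 and Aldh1a2 span more than 1 unit within the deficient group.

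Retinoic acid response genes leaned lower. Of 27 measured, 7 lay lower and 1 higher without overlap, against 12.1% of all genes in each direction, and their median difference was -0.24. Egr1, an immediate early transcription factor gene, read 2.87 and 2.62 against 1.76 and 2.16. Pdk4, which encodes a kinase that restrains pyruvate oxidation, read 2.05 and 2.49 against 1.76 and 1.53. Both genes were lower in both deficient pools, and neither passed the test. The list's median ran from -0.45 without the second deficient pool to -0.03 without the first deficient pool. Across 5 choices of scaling, probe rule and source of values, 6 to 7 of its members lay lower without overlap.

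Among genes with a symbol well above background on all 4 arrays, the widest gaps between the diets on the higher side were at Rgs1, Il1b and Hes1. The gap is the smallest of the 4 differences between a deficient and a sufficient array. Il1b, encoding the inflammatory cytokine interleukin 1 beta, read -3.40 and -3.88 against -2.16 and -0.83, a difference of 2.14 ± 0.75 (limma adjusted p = 1). Every deficient value exceeded every sufficient value by at least 1.23. Rgs1, a regulator of G protein signalling in leukocytes, read -3.93 and -3.95 against -1.29 and -2.46, with a gap of 1.48 and a difference of 2.07 ± 0.95. The sufficient pools were nearly equal for Rgs1, and the deficient pools differed from each other by less than the gap. Hes1, a transcriptional repressor downstream of Notch, read -1.70 and -1.75 against -0.77 and -0.68. Its values clustered tightly within each diet, and the difference was 1.00 ± 0.48. Sgk1, a kinase gene induced by corticosteroids, read 2.51 and 2.25 against 3.19 and 3.12. Arg2, the mitochondrial arginase, read -5.10 and -5.09 against -3.82 and -4.32, and Gpnmb, a glycoprotein of macrophages, read -4.23 and -5.01 against -3.63 and -3.51. Fut4, a fucosyltransferase gene, Itga6, the integrin alpha 6 gene, Amph, Tmem163 and 4930438A08Rik completed the 12 genes with the widest gaps. For Itga6, a second probe differed in the same direction (0.48) and another, well above background on 3 arrays, differed by -0.21.

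On the lower side Tff3 had the widest gap among genes well above background on all 4 arrays. Tff3, a trefoil peptide gene of mucous epithelia that fetal liver also expresses, read 6.01 and 5.36 against 4.19 and 2.47, a difference of -2.36 ± 0.89 (limma adjusted p = 1). The second deficient pool was the lowest by more than 1 unit. Meg3, an imprinted long noncoding RNA of the Dlk1 region, read 3.78 and 4.38 against 2.59 and 2.87, a difference of -1.35 ± 0.51. All 5 Meg3 probes had negative differences, from -1.35 to -0.81. Fst, the activin antagonist follistatin, read 1.26 and 1.58 against 0.54 and 0.18. Dio1, the deiodinase that activates thyroid hormone in liver, read 0.10 and 0.42 against -1.08 and -0.56. Sulf2, a heparan sulphate endosulphatase gene, read -0.58 and -0.53 against -1.22 and -1.27, with near equal values within each diet. Npb, a neuropeptide gene, read 3.00 and 3.00 against 2.12 and 1.73. Car3, a carbonic anhydrase of muscle, fat and liver, read 2.89 and 3.36 against 1.15 and 2.11. At the second Car3 probe, well above background on 3 arrays, the groups overlapped and the difference was -0.43. Ghrl, encoding ghrelin, Nell2, Sypl2 and the pancreatic genes Ctrc and Sycn made up the rest of the 12. Of these 24 genes, 3 had a gap above 1 unit (Il1b, Rgs1 and Tff3), and none was called.

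**Figure D2:**
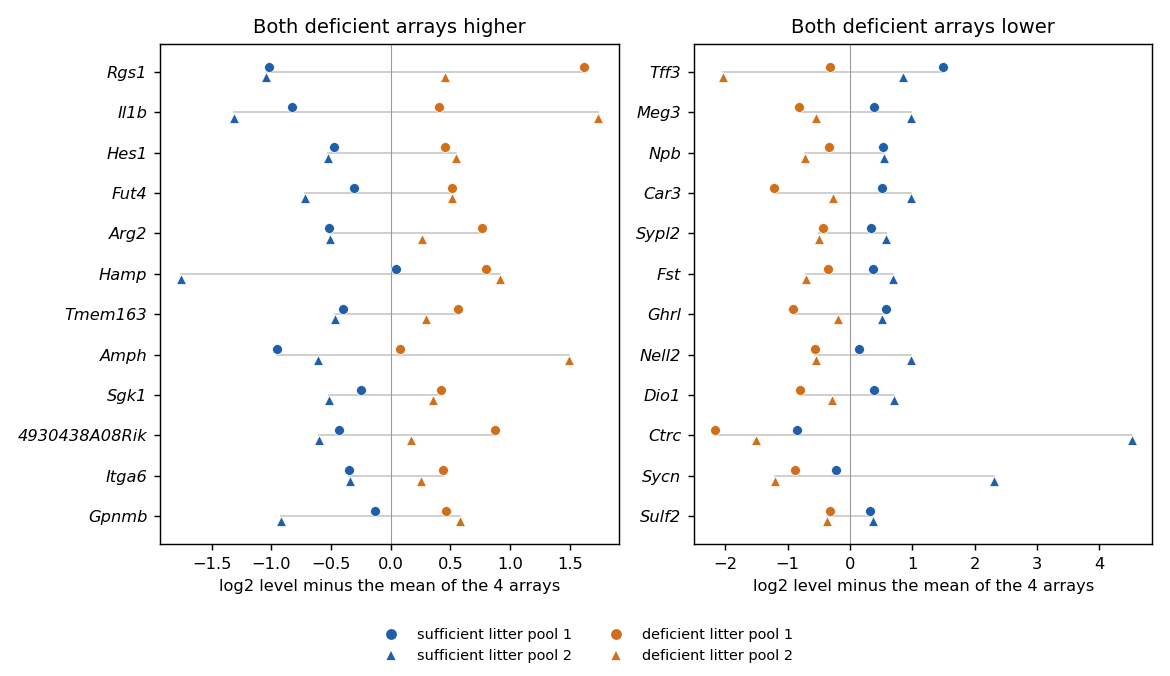
Log2 level minus the mean of the 4 arrays (horizontal axis) for the 12 genes with the widest gap upward (left) and the 12 with the widest gap downward (right) among genes well above background on all 4 arrays; colour gives the diet and shape the pool number. Ctrc and Sycn differ from the others in that the second sufficient pool alone lies far to the right.

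Hamp, which encodes hepcidin, the liver hormone that limits iron uptake, was also among the 12. It read 4.35 and 2.55 against 5.10 and 5.23, a difference of 1.71 ± 1.68, and the second sufficient pool was lowest. Without that pool the difference was 0.81. Id1, a target of bone morphogenetic protein (BMP) signals, as Hamp is, read 0.97 and 0.53 against 1.74 and 1.56. The paralog Hamp2, named here after its values were seen, read -3.66 and -4.94 against -4.29 and -4.59 and its groups overlapped. The 150 bases before the start sites of both are shown as a description only. They were chosen after the newborn diet groups were seen to overlap for Hamp2 and not for Hamp. Capitals mark GGCGCC, the core of a BMP response element, and the STAT site (TTC, any 3 bases, GAA), both searched on either strand.
Hamp, chr7:30944030-30944179, minus strand: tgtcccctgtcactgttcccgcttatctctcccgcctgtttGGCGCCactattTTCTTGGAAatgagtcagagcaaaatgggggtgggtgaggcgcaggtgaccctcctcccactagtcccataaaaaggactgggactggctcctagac
Hamp2, chr7:30924182-30924331, minus strand: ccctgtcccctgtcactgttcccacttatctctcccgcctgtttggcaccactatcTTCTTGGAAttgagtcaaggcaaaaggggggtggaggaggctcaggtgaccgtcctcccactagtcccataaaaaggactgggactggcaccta
Over 147 bases aligned without gaps, 135 were identical (91.8%). The letters GGCGCC were found in the Hamp window and not in that of Hamp2, and TTCTTGGAA was found in both. In weanling Cyp1b1-null liver Hamp2 read 1.71 and 1.07 against 3.22 and 3.42, so its diet groups did not overlap there. Whether either site bears on the levels of these genes was not tested. Of all genes with a window, 10.8% held GGCGCC in the 250 upstream bases and 8.13% held the STAT site. Hamp and Hamp2 are close copies, so their probes may share signal. Of 31 iron handling genes measured, 6 lay higher and 1 lower without overlap (19.4% and 3.23%), against 12.1% of all genes in each direction. Their median was 0.08, from 0.049 without the second sufficient pool to 0.22 without the first sufficient pool.

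Platelet and immune cell markers leaned higher in the deficient pools. Of 14 megakaryocyte and platelet markers, 12 lay higher and 0 lower without overlap, all 14 differences were positive, and the median was 0.55, against 12.1% of all genes in each direction and a median of -0.01. Gp9, a subunit of the platelet receptor for von Willebrand factor, read 2.82 and 2.62 against 3.55 and 2.94. Treml1, a receptor of platelet granules, read 3.14 and 2.93 against 3.79 and 3.39. Selp, the adhesion molecule P-selectin, read -3.09 and -3.11 against -2.43 and -2.88. The first deficient pool was highest for all 3 of these genes. Summed over the list, signal was 107 and 92.7 in the sufficient pools and 194 and 105 in the deficient pools, in units of the 75th percentile, so the sum separated the first deficient pool alone. The median was 0.27 without the first deficient pool and 0.43 without the second sufficient pool.

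The counts of the other blood cell lists are likewise to be set against 12.1% of all genes in each direction. Of 23 macrophage and Kupffer cell markers, 14 lay higher and 1 lower without overlap (median 0.31, from 0.15 without the second sufficient pool to 0.53 without the first sufficient pool). Vsig4, a complement receptor of Kupffer cells, read 0.74 and 0.56 against 0.83 and 1.31. Lyz1, a lysozyme gene, read 3.84 and 3.40 against 4.05 and 4.11. Spic, which specifies iron-recycling macrophages, read 1.99 and 1.38 against 1.97 and 2.09, and its groups overlapped. The summed signal was 411 and 338 against 459 and 499. Of 27 lymphocyte markers, 7 lay higher and 1 lower (median 0.37, from 0.11 without the second deficient pool to 0.59 without the first deficient pool). Il7r, the interleukin 7 receptor of lymphoid progenitors, read -2.37 and -3.43 against -2.07 and -1.46 (limma adjusted p = 1). Cd79b and Blnk, both of the B-cell receptor pathway, were highest in the second deficient pool, at 3.91 and 2.65, and lowest in the second sufficient pool, at 2.50 and 0.92. Of 21 neutrophil and granule genes, 4 lay higher and 0 lower (median 0.28, from -0.0099 without the second sufficient pool to 0.54 without the first sufficient pool). Mpo, the myeloperoxidase gene, read 6.11 and 5.90 against 6.70 and 6.23. No member of these 4 lists was called. Erythroid genes, which make up much of the blood-forming liver, gave 2 higher and 5 lower of 37 (median -0.09, from -0.19 without the first sufficient pool to -0.02 without the second sufficient pool).

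**Figure D3:**
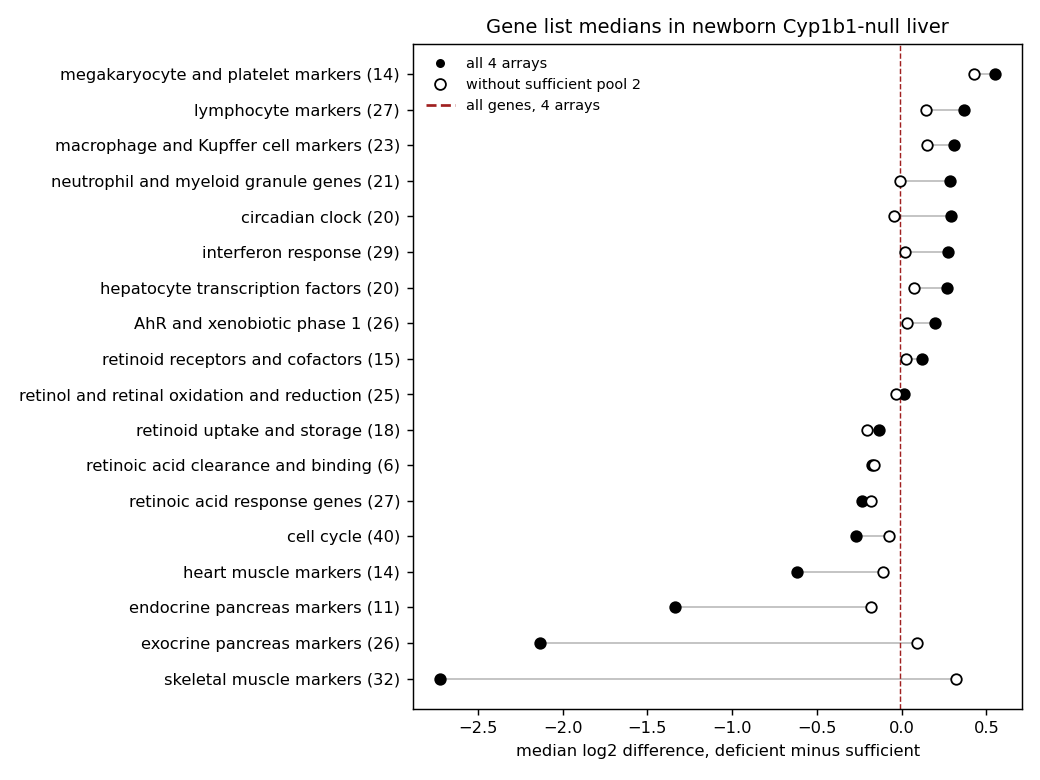
Median log2 difference, deficient minus sufficient (horizontal axis), of 18 gene lists, with the number of genes measured in brackets; filled points use all 4 arrays, open points leave out the second sufficient pool, and the dashed line is the median of all genes. Without that pool the exocrine pancreas list moves from -2.13 to 0.09 and the skeletal muscle list from -2.72 to 0.32, and the platelet list moves from 0.55 to 0.43.

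Transcription factors of hepatocytes also leaned higher. Of 20, 9 lay higher and 0 lower without overlap against 12.1% of all genes in each direction (median 0.27, from 0.074 without the second sufficient pool to 0.38 without the first deficient pool). Over the choices of scaling, 6 to 9 of the 20 lay higher, and over all genes 2222 to 3185 did. Hhex, which the liver bud needs, read 2.40 and 1.81 against 2.79 and 2.65. At the second Hhex probe, well above background on all 4 arrays, the groups overlapped, at -0.37 and -1.33 against -0.44 and -0.44. Cebpb read 2.55 and 2.16 against 2.77 and 2.84 and Gata6 -0.20 and -0.31 against -0.10 and 0.32. The other Gata6 probes, well above background on all 4 arrays, differed by -0.04 and -0.14, and their groups overlapped. Of 27 adult hepatocyte genes, 0 lay higher and 0 lower without overlap (median 0.05, from -0.23 without the second sufficient pool to 0.34 without the first sufficient pool). Of 26 genes of the aryl hydrocarbon receptor and phase 1 metabolism, 6 lay higher and 0 lower (median 0.20, from 0.03 without the second sufficient pool to 0.34 without the first sufficient pool). Ahr itself, the receptor that induces Cyp1b1, read 0.63 and 0.39 against 0.83 and 1.12, and its target Cyp1a1 read -5.09 and -5.54 against -3.02 and -4.93. Of 27 stress response genes 6 lay higher and 0 lower (22.2% and 0%), with Sesn2 at 1.95 and 2.05 against 2.22 and 2.58. Of 20 clock genes 6 lay higher and 1 lower (median 0.29, from -0.044 without the second sufficient pool to 0.55 without the first sufficient pool). Per2 read -1.95 and -2.17 against -1.64 and -1.52, while Npas2 read -4.61 and -4.54 against -5.10 and -5.96. At the second probes of Sesn2 and Per2, well above background on all 4 arrays, the groups overlapped, with differences of 0.19 and 0.10. Of 21 immediate early genes 5 lay higher and 1 lower, and Fos read -4.47 and -3.45 against -2.93 and -2.91. Of 29 interferon response genes 3 lay higher (10.3%, below the share of all genes) and 1 lower, and Ifit1 read -2.54 and -3.07 against -2.12 and -2.27. None of these was called.

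Cell cycle genes leaned lower. Of 40 measured, 15 lay lower and 0 higher without overlap, against 12.1% of all genes in each direction, 38 of the differences were negative, and the median was -0.27. Ttk, a kinase of the spindle checkpoint, read -3.28 and -3.40 against -3.75 and -4.09. Top2a, the topoisomerase of dividing cells, read 1.88 and 2.09 against 1.26 and 1.87. Ccnb1, cyclin B1, read 0.37 and 1.10 against -0.03 and 0.36. The gap between the groups was only -0.015 for Top2a and -0.0027 for Ccnb1. At their other probes the groups overlapped, with differences of -0.20 for Top2a and -0.29 and -0.28 for Ccnb1. The first deficient pool was lowest for Top2a and Ccnb1 and the second deficient pool for Ttk. The median ran from -0.41 without the first sufficient pool to -0.072 without the second sufficient pool. Over the choices of scaling 10 to 15 of the 40 lay lower, and over all genes 2037 to 2733 did.

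Many genes with small p-values were highest in the second sufficient pool. Of the 69 genes with an unadjusted p under 0.05, 60 lay lower on the deficient diet, and the second sufficient pool was the highest of the 4 arrays for 51 of the 69. For 45 of the 69 the groups did not overlap, and for 37 the difference was under 0.5 of its size without that pool. Without that pool 15 genes had such a p. With the 8 PN0 arrays alone the count was 258 with it and 281 without it, and without 2 weanling arrays of low correlation it was 286 and 244; both counts without the pool come from alternatives chosen after seeing the data. Among the 12 smallest p-values, Il1b, given above, and Trim7, at -5.48 and -5.24 against -7.27 and -7.67, were not high on 1 array alone. Neither deficient reading of Trim7 was well above background. Ctrc, encoding the pancreatic protease chymotrypsin C, read -1.80 and 3.57 against -3.12 and -2.46 (limma adjusted p = 1). Only the second sufficient pool stood apart, and without it the difference was -0.99 in place of -3.68. Cel, the pancreatic bile salt lipase, read -1.93 and 1.72 against -2.39 and -2.21, and Cela2a, an elastase, read -4.32 and 0.42 against -5.23 and -4.62. The summed signal of the 26 exocrine pancreas markers was 20.3 and 129 in the sufficient pools and 20 and 21.4 in the deficient pools. The list held 9 genes lower and 0 higher without overlap, against 12.1% of all genes in each direction. Its median of -2.13 became 0.09 without the second sufficient pool. The endocrine gene Ins1, for insulin, read -5.45 and 0.93 against -6.33 and -4.72, Pyy, for peptide YY, -2.75 and 1.55 against -3.82 and -2.55, and Chgb, a granin of endocrine cells, -4.59 and -1.39 against -7.45 and -4.46.

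Skeletal and heart muscle genes were also highest in the second sufficient pool. Mb, the myoglobin gene, read -5.02 and 2.74 against -7.60 and -2.75, and Tnnt1, troponin T of slow muscle, read 0.24 and 3.62 against 0.51 and 0.14. Ldb3, a protein of the Z-disc, read 0.04 and 1.69 against -0.70 and -0.38. Myl2, the light chain of heart and slow muscle myosin, read -4.57 and 3.34 against -5.60 and -2.94, and Tnnc1, troponin C, -2.22 and 0.57 against -2.16 and -3.64. The summed signal of the 32 skeletal muscle markers was 12.1 and 1230 in the sufficient pools and 6.97 and 86.5 in the deficient pools, so the second deficient pool also read above both first pools. Without the second sufficient pool the median of the list was 0.32 in place of -2.72. Other genes among the 12 with the smallest p also differed widely. Col8a1, which encodes a short-chain collagen, read -2.45 and -0.57 against -4.35 and -2.88, Thbs4, a thrombospondin of tendon, -4.50 and -0.81 against -7.51 and -4.15, and Klk1b3, a kallikrein, -4.42 and -1.34 against -5.48 and -4.58. Kcna1, a potassium channel gene, read -5.45 and -3.39 against -7.81 and -7.10 and was not well above background in either deficient pool. It was at least 2.38-fold lower there, setting the mean of the sufficient pools against the lowest signal counted as well above background on each deficient array, and at least 1.17-fold lower without the second sufficient pool. Pou3f1, a transcription factor gene, read -5.95 and -2.88 against -7.38 and -6.80 and was well above background on the second sufficient array alone, so its difference rests on that pool. Trim7, also not well above background in either deficient pool, was at least 1.24-fold lower there on the terms used for Kcna1. It had 3 probes, with differences from -2.11 to -0.25, and the probe at -0.25 was well above background on all 4 arrays. Trgv2, a T-cell receptor segment, differed by -2.45 ± 0.88, while its second probe, below background on all 4 arrays, differed by -0.09. The part that other tissues in a pool played in any of these differences was not tested.

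**Figure D4:**
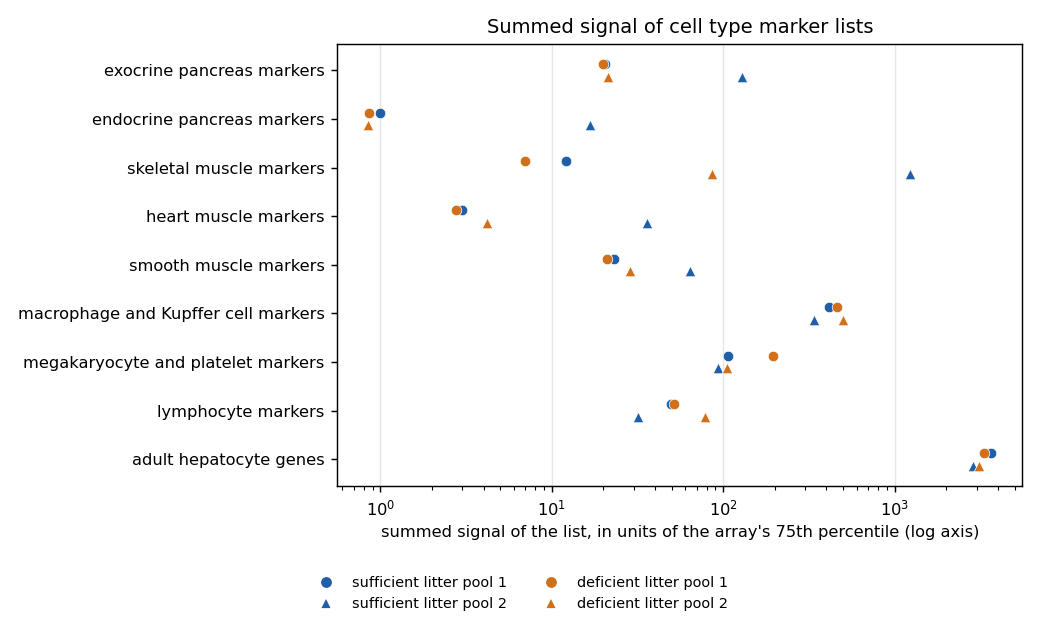
Summed signal of 9 marker lists on each of the 4 arrays, in units of the array's 75th percentile on a log axis; colour gives the diet and shape the pool number. The second sufficient pool reads 1230 for skeletal muscle and 129 for exocrine pancreas, where the first sufficient and first deficient pools read 6.97 to 20.3, and the 4 arrays lie close together for adult hepatocyte genes.

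The diet difference was next set against that in newborn wild-type liver, which shares no array with it. The wild-type arrays were on a different slide and scan day from the null arrays, so genotype cannot be told apart from slide and scan day. No gene was called for a difference between the genotypes in their response (limma, 0% of 20533 genes, smallest adjusted p = 1), and 318 had an unadjusted p under 0.05. Without 2 weanling arrays of low correlation with the rest, 10 genes were called, and 0 without the second sufficient pool as well. Col8a1 had the smallest p among genes with a symbol in this test, at -2.10 ± 0.66 in null and 1.40 ± 0.66 in wild type (limma adjusted p = 1). Its wild-type reading of -4.14 on the first sufficient array lay under that array's lowest signal counted as well above background, -3.26. Several list medians had opposite signs in the 2 genotypes: macrophage markers 0.31 in null and -0.28 in wild type, cell cycle genes -0.27 and 0.25, extracellular matrix -0.20 and 0.69, and the aryl hydrocarbon receptor list 0.20 and -0.34. Leaving out 1 newborn null pool moved the null extracellular matrix median from -0.72 without the second deficient pool to 0.26 without the first deficient pool, so its sign depends on 1 array, and the aryl hydrocarbon receptor median was 0.03 without the second sufficient pool. Of the 23 macrophage markers 8 lay lower and 0 higher without overlap in wild type, where 3139 of all 20533 genes lay lower and 5139 higher. Platelet markers were positive in both, at 0.55 and 0.23. Tff3, at -2.36 in null, was -0.13 in wild type, and Hamp was 1.71 and -1.48. These pairs of medians carry no test of their own difference, and the Y-linked genes given above also separated the newborn null from the newborn wild-type arrays. Within wild type, Xist set the first deficient array apart from the others, so the sex-linked signal also differed inside that diet comparison.

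**Figure D5:**
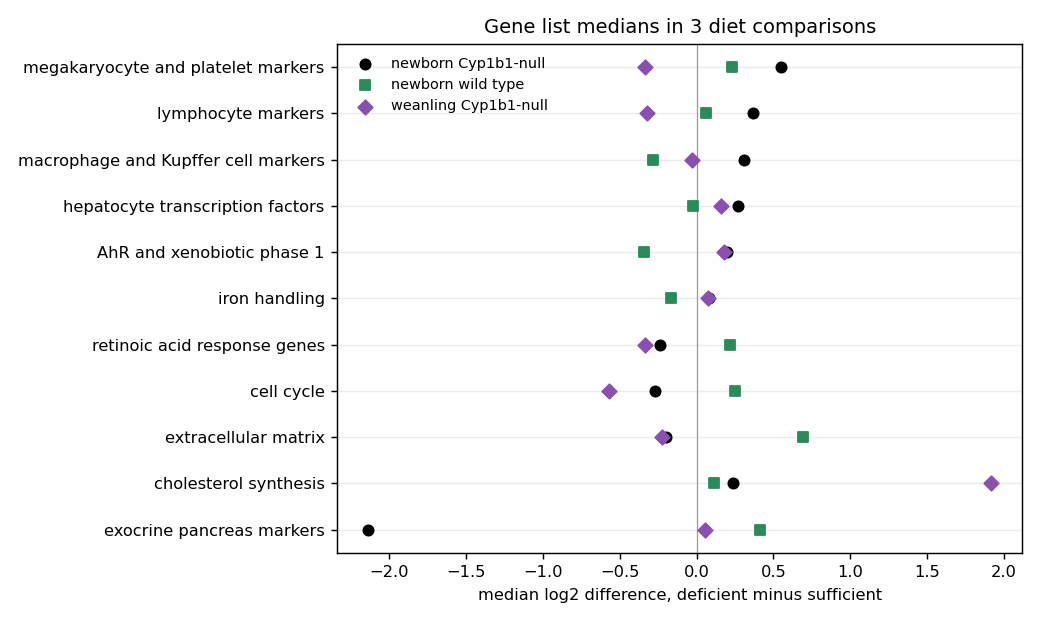
Median log2 difference, deficient minus sufficient (horizontal axis), of 11 gene lists in newborn Cyp1b1-null, newborn wild-type and weanling Cyp1b1-null liver, 2 arrays for each diet in each. The newborn null and wild-type medians lie on opposite sides of 0 for 8 of the lists with all 4 null arrays, extracellular matrix among them (its null median is 0.26 without the first deficient pool), and the weanling median stands out for cholesterol synthesis at 1.92.

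The same diets were also compared in Cyp1b1-null liver at weaning. The test of the difference between the ages called 1 gene of 20533 (0.00487%). Ifi202b, an interferon-inducible gene, was not well above background on any of the 4 newborn null arrays, which read -7.88 and -8.05 against -7.92 and -7.73. At weaning it read -7.57 and -7.25 on the sufficient diet and -0.82 and -1.29 on the deficient diet, and the sufficient readings lay under the lowest signal counted as well above background. Against that signal Ifi202b was at least 22.6-fold higher on the deficient diet at weaning. On the readings as they stand the 2 diet effects differed by -6.22 ± 0.80 (limma adjusted p = 0.0169). The gene was not called after quantile normalization, with or without normexp background correction, nor when any 1 of the 4 newborn pools was left out. The difference was -4.88 after quantile normalization, -1.26 with normexp correction as well, and -6.31 to -6.13 with 1 pool left out. Tff3 differed with opposite signs at the 2 ages, at -2.36 ± 0.89 at birth and 2.86 ± 0.89 at weaning (limma adjusted p = 1), and all 4 arrays of each age kept that order. Igf2, the fetal growth factor gene, differed by -0.03 at birth and -3.90 at weaning. Hamp, at 1.71 at birth, differed by 4.05 at weaning, and cholesterol synthesis genes had a median of 0.24 at birth and 1.92 at weaning. The newborn cholesterol median ran from -0.10 without the first sufficient pool to 0.53 without the first deficient pool, and was -0.072 without the second deficient pool, so its sign depends on 1 array. Xist lay between -7.42 and -7.28 and Ddx3y between 1.79 and 2.05 on the 4 weanling null arrays, the reverse of the newborn null arrays. The weanling null arrays were also on another slide, so age, slide and this sex-linked signal cannot be told apart in this comparison.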

How the data were processed

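Expression was measured on 1-colour Agilent arrays (Cy3). Per the file headers, Agilent Feature Extraction 10.7.3.1 produced the deposited intensity values, background-subtracted within each array and not scaled between arrays. The submitters' processing notes also name limma. The authors' deposited series table holds intensity values that differed from the scanner files by at most 0.00497 as a relative difference.

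Spots that were controls or carried an outlier mark were dropped, and log2 of the deposited processed signal was taken minus the array's 75th percentile. Each gene was read from its brightest probe, and counted as measured if all arrays of 1 group or more had it well above background. Limma 3.58.1 (R 4.3.3) was fitted to the 10 groups (24 arrays as 22 samples, since the 3 arrays of weanling wild-type liver on the sufficient diet are 1 pool per the labels and were averaged) with Benjamini-Hochberg adjustment over 20533 genes, and a call was an adjusted p under 0.05. Intervals are 95%. Probe symbols came from the files and from RefSeq, and promoter sequences from RefSeq for GRCm38.p6. The number of arrays, 2 for each diet, limits the precision.

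Named genes were 14 study genes, the 12 smallest p-values, the 12 widest gaps in each direction, up to 3 genes of each list with the smallest p, up to 4 for each of the tests against genotype and age, the sex-linked genes and liver genes that check the tissue. Of the study genes, 1 is not reported here. Hamp2 and Scgb1a1 were added after their values were seen. The members and lists were chosen with earlier results of these data known. Scripts were tested on simulated data. Alternatives covered normalization, background correction, filters, the probe rule, the series table, samples in the fit, slide and replicate blocks and leaving out each array.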

Additional observations from a re-analysis of the deposited data

Results flagged for a closer look

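On the readings as they stand, the diet difference of Ifi202b was not the same in newborn and weanling Cyp1b1-null liver. Newborn minus weanling was -6.22 on the log2 scale (limma, Benjamini-Hochberg adjusted p = 0.0169). The gene was not called after quantile normalization, nor when any 1 newborn pool was left out. With normexp correction as well as quantile normalization the difference was -1.26, also not called. Age, slide and the sex-linked signal cannot be told apart here. The gene was not well above background on any of the 4 newborn arrays, so its newborn diet difference of 0.14 is one between background readings. At weaning both deficient arrays read above both sufficient arrays, which were also at background, and the gene was at least 22.6-fold higher on the deficient diet. The interferon response list gave a median difference of 0.27 at birth and 0.36 at weaning, and the newborn value ran from -0.091 without the second deficient pool to 0.66 without the first deficient pool, with 0.017 without the second sufficient pool. Groups of 2 arrays are too small to be examined for single outlying arrays.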

How the results depend on the processing

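No gene was called for diet under the alternatives of normalization, background correction, filter, probe rule, series table, samples in the fit and slide block, and between 0 and 11 were called when 1 array was left out. The 11 calls came without the first sufficient pool, all lower, so that the second sufficient pool alone stood for that diet and was assumed to vary like the other groups. Genes with an unadjusted p under 0.05 numbered 37 after quantile normalization, 41 among genes well above background on all 4 arrays, 122 with slide as a random block, 258 with the 8 PN0 arrays alone, 286 without 2 weanling arrays of low correlation and 449 with the 4 arrays alone. A fit with replicate number as a block called 0 genes and gave 145 such p-values. The labels do not pair the pools, and the correlation of same-numbered pools' deviations over the 2 pairs was 0.33.

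For the difference between genotypes, 1 gene was called with the 8 PN0 arrays alone, 10 without the 2 weanling arrays, and 0 to 2 when 1 array was left out. For the difference between ages, 0 genes were called after quantile normalization, after normexp correction and among genes well above background on all 4 arrays, and 0 to 1 when 1 array was left out. Counts without overlap, with 1 array left out, were 4239 to 7914 higher and 5265 to 6966 lower, where fewer arrays must separate. The cause of the other changes was not tested.

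Of 103 named genes, 78 kept the sign of their difference under every alternative run for them. When 1 array was left out, the difference ranged over Cyp1b1 -0.74 to 0.037, Rbp4 -0.13 to 0.0092, Ttr -1.30 to 0.015, Lrat -1.10 to 0.43, Stra6l -0.32 to 0.32, Rarb -0.17 to 0.077, Rxra -0.15 to 0.65, Cyp26a1 -0.83 to 0.36, Dhrs3 -0.0042 to 0.20, Aldh1a2 -0.71 to 0.93, Hamp2 -0.78 to 0.50, Tnnt1 -3.30 to 0.078, Myl2 -7.61 to 0.30, Igf2 -0.18 to 0.12, Xist -0.44 to 0.46, Ddx3y -3.77 to 0.059, Alb -0.15 to 0.076, Afp -0.16 to 0.083, Apoa1 -0.17 to 0.14, Plin4 -2.62 to 0.31, Des -4.42 to 0.40, Cidec -0.27 to 2.16 and Scgb1a1 -0.53 to 7.80. Combining the loss of the second sufficient pool with either change of samples, chosen after seeing the data, gave 0.037 for Cyp1b1, -0.15 for Rxra, 0.078 for Tnnt1, 0.30 for Myl2, 0.050 for Igf2, -0.44 for Xist, 0.059 for Ddx3y, 0.31 for Plin4, 0.40 for Des and -0.27 for Cidec. Normexp correction gave 0.0039 for Stra6l, 0.042 for Hamp2, -0.035 for Kdm5d, -0.14 for Uty and 0.016 for Apoa1. The series table gave 0.0004 for Stra6l. Quantile normalization gave -0.0058 for Xist, and the mean of the probes gave -0.12 for Xist, 0.0022 for Rarb and 0.0023 for Igf2.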

Other observations

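Other lists of liver function are given by their counts without overlap, to be set against 12.1% of all genes in each direction, and no member was called. Of 35 lipogenesis genes 3 lay higher and 3 lower without overlap (median 0.04, from -0.18 without the second deficient pool to 0.15 without the first deficient pool). Thrsp, a regulator of lipogenic genes, read -4.89 and -1.10 against -5.52 and -4.42, and the lipid droplet genes Plin4 and Cidec read -1.72 and 1.20 against -1.53 and -1.30 and 2.47 and 0.04 against 2.73 and 1.67. The second sufficient pool stood apart for all 3 of these genes. Of 35 genes of fatty acid oxidation and ketogenesis 2 lay higher and 4 lower (median 0.01, from -0.16 without the second sufficient pool to 0.17 without the second deficient pool), and of 25 bile acid genes 0 and 0 (median 0.10, from -0.15 without the second sufficient pool to 0.37 without the first sufficient pool). Of 26 acute phase genes 5 lay higher and 1 lower (median 0.13, from -0.093 without the second sufficient pool to 0.31 without the first sufficient pool). Cd14, the lipopolysaccharide co-receptor, read -0.53 and -0.58 against -0.03 and -0.07, and Saa3, a serum amyloid of macrophages, read -1.45 and -2.03 against -0.70 and -1.33. Both were higher in both deficient pools. Of 23 fetal liver genes 2 lay higher and 4 lower (median -0.11, from -0.20 without the first sufficient pool to 0.027 without the second sufficient pool), among them the imprinted gene Peg3 at 2.62 and 2.40 against 1.74 and 2.29.

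Of 23 stellate cell and fibroblast markers, the cells that store vitamin A, 2 lay higher and 1 lower without overlap (median -0.09, from -0.39 without the second deficient pool to 0.28 without the first deficient pool). This count and those that follow are also to be set against 12.1% of all genes in each direction. Des, for desmin, read -2.41 and 2.40 against -2.54 and -1.50, and Rgs5, a pericyte gene, read -4.03 and -1.64 against -5.27 and -3.66. Desmin is also a muscle gene, and the second sufficient pool was highest for both. Endothelial markers gave 2 higher and 0 lower of 24 (median 0.13, from -0.074 without the second deficient pool to 0.34 without the first deficient pool), and genes of oxidative phosphorylation 0 and 1 of 38 (median -0.24, from -0.61 without the first deficient pool to 0.12 without the second deficient pool). Over the choices of scaling, 1 to 11 of the latter lay lower. Ribosomal protein genes gave 2 higher and 0 lower of 34 (median 0.01, from -0.10 without the first deficient pool to 0.14 without the second deficient pool). Of the oxidative stress genes, Srxn1, for sulphiredoxin, read 2.03 and 1.49 against 3.05 and 1.84. Scgb1a1, a secretoglobin of airway epithelium, read -2.62 and -3.65 against -3.67 and 4.66, high in the second deficient pool alone.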
